A study of Homo sapiens with 4 samples.

Results

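Genes of ribosome biogenesis and RNA polymerase I were examined in Hermes 4B, immortalised melanocytes from human skin, labelled WT, by ribosome profiling. The members are 36 genes picked by name for their role in the pathway, with earlier results of these data known, and coding-sequence reads were summed over the transcripts of each gene name. Of the 36, 34 had rows in the deposited tables, out of 14355 gene names in all. FBL and NOP10 were not analysed here. All 34 passed the filter on low counts, which left 10469 genes for testing.

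The comparison is between siRNA targeting CDH3-AS1, an antisense RNA at the gene of P-cadherin, and control siRNA, both used at 25 to 50 nM. The culture medium of every library held TPA, endothelin-1, cholera toxin and stem cell factor, and cells were washed with cycloheximide (100 µg/mL), which stalls ribosomes, before harvest. Batches 1 and 2 each hold 1 library of either siRNA, 4 libraries in all. The series' title concerns P-cadherin expression, and the comparison here gives the ribosome assembly genes. CDH3-AS1 itself was not analysed here, and its knockdown is therefore unchecked. Whether the libraries are separate cultures is not labelled, so p-values measure only how these 4 samples spread, and that spread may be technical. The models below estimate it over all tested genes and not from each gene alone.

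Ribosomes are built in the nucleolus. RNA polymerase I, with its DNA-binding factor UBTF, transcribes the long precursor of the ribosomal RNAs. Box C/D and box H/ACA small nucleolar ribonucleoproteins (snoRNPs) then guide methylation and pseudouridylation of that RNA, while assembly factors fold, cut and load it with ribosomal proteins before both subunits leave the nucleus. The pathway is a target of the transcription factor MYC and runs fast in proliferating cells.

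Many of these genes carry the E-box CACGTG, the sequence that MYC and MAX bind, close to where transcription starts. The motif reads the same on both strands. Promoter windows from RefSeq (GRCh38.p14, 250 bases before to 50 after the start, 300 in all) were at hand for 29 of the 36 members, and 13 of these genes (44.8%) held the motif. Counted by window, it was present in 38.9% of the members' 36 windows and in 7.26% of all 35116 windows. Counted by gene, it was present in 13.1% of the 8523 tested genes with a window. The sites of 4 measured members are shown because each begins within 10 bases of the start, and capitals mark the E-box.
RRP9: gttcagctgcCACGTGagttctgcgg
UTP20: tttttccgtcCACGTGacccactcag
WDR43: cacggacgaaCACGTGgctgcagcgg
GNL3: cttcagttcaCACGTGgcgccagcgg
They lie at chr3:51941894-51941919 (minus strand), chr12:101280085-101280110 (plus), chr2:28894660-28894685 (plus) and chr3:52686028-52686053 (plus). The windows of DKC1 and LSG1, described below, held no CACGTG, and the other members described as lower, NOLC1 and POLR1E, were not matched to a window. A match is a description of these letters and not of binding.

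Library totals ran from 2034854 to 6759850 reads, and members had between 36 and 5055 coding reads in a library. All 9 melanocyte markers had reads in every library, with summed levels of 21533 to 39916 CPM. Control siRNA in batch 1 also held skeletal muscle transcripts. The 16 of 19 listed muscle genes in the tables summed to 4316 CPM there and all had reads, against 7.28 to 17.5 CPM in the other libraries, where 5 to 10 of them were at 0. The 5 fibroblast genes in the tables, of which 3 had reads in that library, summed to 492 CPM there and to at most 4.88 CPM elsewhere. Where a call or a gap between the siRNA groups below rests on that library, this is said beside it.

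Ribosome density on these genes was above that of the typical tested gene. Their median coding-sequence density in RPKM, reads scaled by coding length and library total, was 60.1 and 52.5 in the control libraries of batches 1 and 2 and 54.4 and 46.4 with CDH3-AS1 siRNA, against 25.5 to 27.6 over all tested genes. On this per-length scale the abundant nucleolar proteins stood highest. NCL (nucleolin) had a mean of 337 ± 76.8 RPKM (SD, n = 2) in the controls, NPM1 (nucleophosmin) 314 ± 24.4 and NHP2, the small H/ACA protein, 281 ± 52.6. The means of these 3 genes did not differ beyond their spread. EBNA1BP2 and GNL3 (nucleostemin) followed at 132 ± 33.1 and 129 ± 40.7 RPKM, which also did not differ beyond their spread. UTP20, a large scaffold of the small-subunit precursor, was lowest at 14.0 ± 3.87 RPKM, next to POLR1B at 15.6 ± 3.43. RPKM were summed over transcripts, so a gene with reads on a short listed isoform, such as NPM1 or NHP2, reads high on this scale. NHP2 had 58.0% of its coding reads on a transcript with a coding length of 273 bases. NPM1's controls of batches 1 and 2 had 331 and 297 RPKM but 112 and 180 CPM, so its small SD holds for RPKM only.

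**Figure D1:**
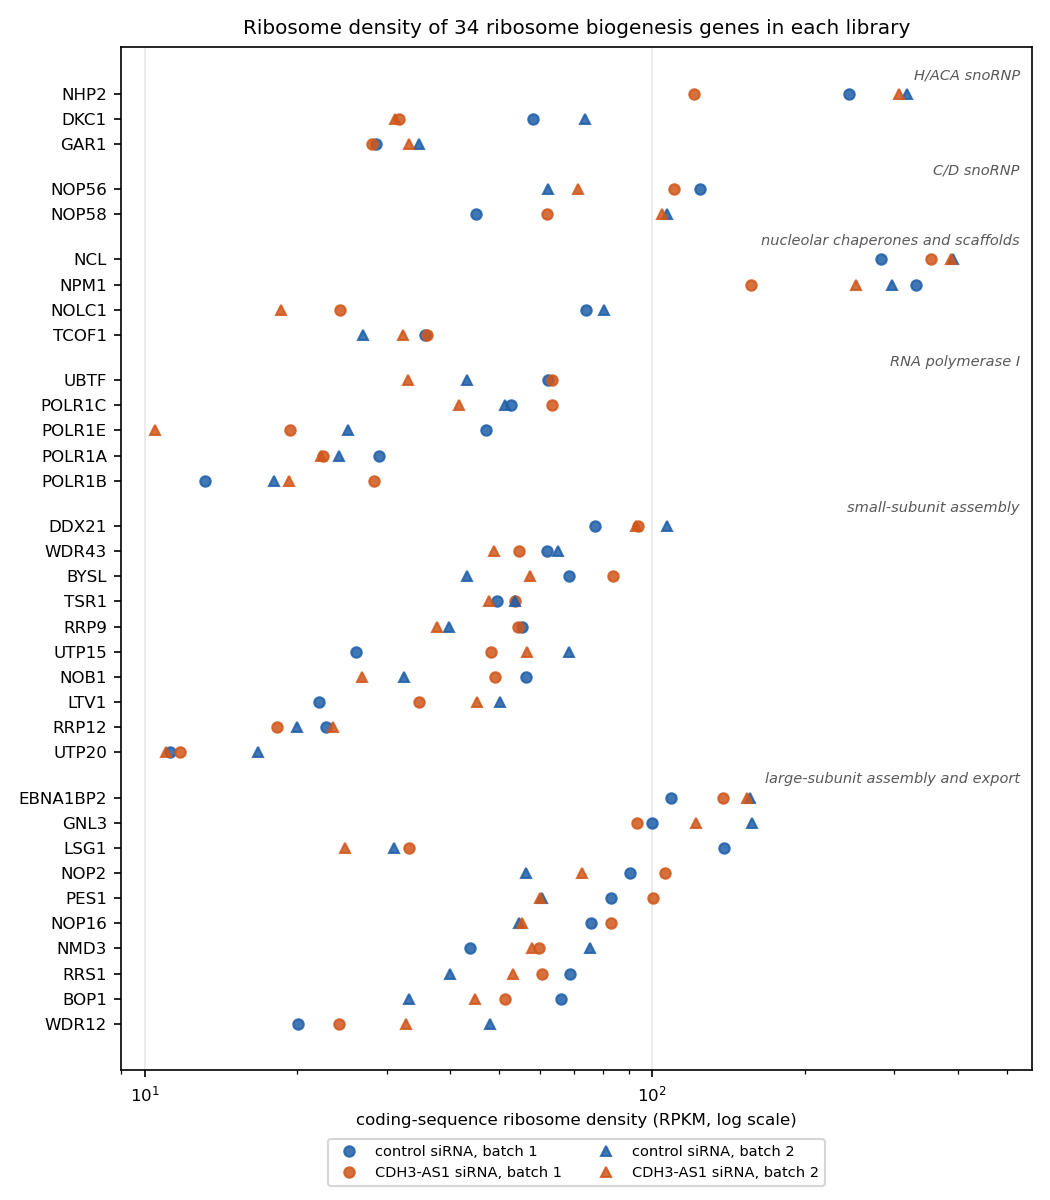
Coding-sequence ribosome density (RPKM, log axis) of 34 members, grouped by role, with 1 point per library: blue for control siRNA, orange for CDH3-AS1 siRNA, circles for batch 1 and triangles for batch 2. NOLC1, DKC1 and POLR1E have both orange points left of both blue points, and LSG1 has 1 blue point far right of its other 3.

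After CDH3-AS1 siRNA, NOLC1, DKC1, POLR1E and LSG1 were called lower with the batch as a block, and no member was called higher. LSG1 rests on the control of batch 1, the library with muscle transcripts: without it, the log2 difference was -0.02 (no block). These 4 come from different steps of the pathway: a snoRNP chaperone, the pseudouridine synthase, a polymerase I subunit and a cytoplasmic GTPase of the large subunit. They passed edgeR's quasi-likelihood test at an adjusted p under 0.05, which is 4 of 34 members (11.8%), LSG1 included. That model leaves 1 residual degree of freedom, so the spread behind each p is largely borrowed from other genes. A small p therefore does not show that a gene's batches agreed. With the same block DESeq2 called 1 of the 33 members it adjusted (3.03%), NOLC1, against 0.916% of all genes, and limma on log2(RPKM + 1) called 0 members and 7 genes. Over all tested genes edgeR with the block called 1.62%, 0.697% lower and 0.927% higher. Without the block edgeR called 0 members and 0 of all genes, and DESeq2 called 0 members and 0.0191% of all genes. At an unadjusted p under 0.05 edgeR without the block had 3 members (8.82%), NOLC1, DKC1 and POLR1E, all lower, against 2.15% of all genes and 1.1% lower. The libraries are bulk, so fewer cells of a type and less RNA per cell cannot be told apart. The members were listed with earlier results of these data known, NOLC1 among them, so their share of calls is a description.

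The median log2 fold change of the 34 members was 0.02 with the block, against -0.01 over all tested genes, and within batches it was -0.00 in batch 1 and -0.04 in batch 2. Both batches had the same direction for 15 of 34 members (44.1%), against 54.3% of all genes. Of these, 8 were lower in both batches (23.5%; 27.8% of all genes) and 7 higher (20.6%; 26.5% of all genes). A drop of at least 0.5 (log2) in each batch was seen in 3 members (8.82%; 4.67% of all genes) and a rise of that size in 0 (4.37% of all genes). Differences of at least 0.5 in opposite directions were seen in 0 (4.85% of all genes). Among the 30 members not called, log2 fold changes with the block ran from -0.51 to 0.43.

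**Figure D2:**
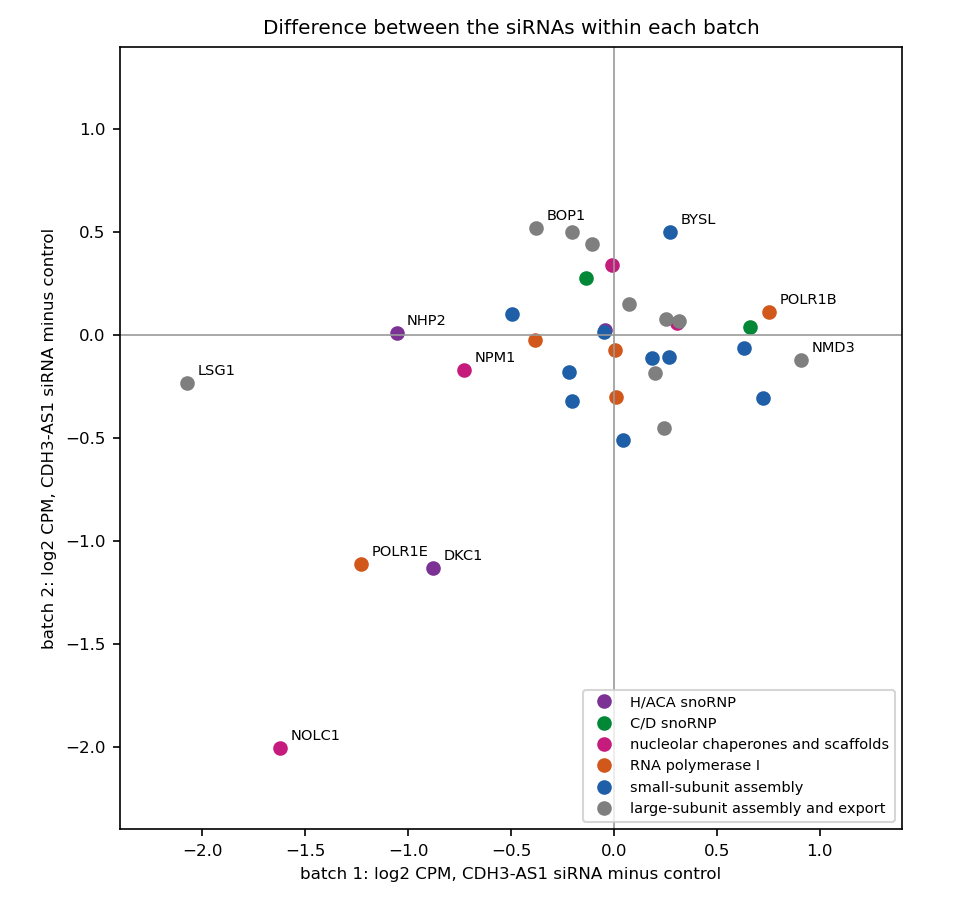
Difference between CDH3-AS1 and control siRNA in log2 CPM for each of 34 members, batch 1 on the horizontal and batch 2 on the vertical axis, coloured by role. NOLC1, POLR1E and DKC1 lie in the lower left, more than 0.5 below 0 on both axes. LSG1 and NHP2 lie far left but near 0 in batch 2. NMD3 (0.91) and POLR1B (0.75) lie on the right in batch 1, and no other member is more than 0.5 from 0 in the same direction on both axes.

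NOLC1 encodes Nopp140, a phosphoprotein that shuttles between nucleolus and Cajal body and binds both classes of snoRNP. CPM of the members are coding reads scaled to the library's total over tested genes, with TMM factors. NOLC1 had 171 and 181 CPM in the control libraries of batches 1 and 2 (321 and 1024 reads). With CDH3-AS1 siRNA it had 55.3 and 44.6 CPM (349 and 113 reads). The groups did not overlap, and 32.3% and 24.7% of the control level remained in batches 1 and 2. Group means were 176 ± 7.0 and 50.0 ± 7.53 CPM (SD, n = 2), a difference larger than the spread between replicates. The log2 fold change was -1.81 (SE 0.27) with the block, adjusted p = 6.56e-08 by edgeR's quasi-likelihood test, rank 7 by p of all 10469 genes. Without the block it was -1.80 (SE 0.32), adjusted p = 1.00, and -1.81 when the control of batch 1 was also left out. NOLC1 was the member that DESeq2 with the block also called (adjusted p = 2.04e-05; 0.916% of the 6004 genes it adjusted were called). A single transcript held 96.3% of NOLC1's coding reads.

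TCOF1 encodes treacle, a nucleolar phosphoprotein with the same kind of acidic serine repeats, which holds polymerase I and UBTF at the ribosomal genes. It had 159 and 119 CPM in the controls and 158 and 150.5 CPM with CDH3-AS1 siRNA, so its groups overlapped. Per length, NOLC1 stood at 2.08 and 2.99 times TCOF1 in the control libraries of batches 1 and 2, and at 0.674 and 0.577 times TCOF1 after CDH3-AS1 siRNA. The order of the pair thus differed between the siRNAs in both batches. This and the other ratios were chosen after the values were seen, and an exact permutation test of 2 libraries against 2 cannot give a two-sided p below 0.333.

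The other nucleolar scaffolds were not called between the siRNAs. NCL, which binds nascent precursor RNA, had 647 and 877 CPM in the controls and 801 and 914 CPM after CDH3-AS1 siRNA, with overlapping groups. NPM1, which serves large-subunit assembly and export, had 112 and 180 CPM in the controls against 67.3 and 160 CPM. It was lower within both batches, but its groups overlapped and its log2 difference of -0.44 (SE 0.26, with the block) missed the threshold in edgeR (adjusted p = 0.617). On NPM1's most abundant transcript alone the sign was opposite, at 0.53 (SE 0.32, with the block), also not called. The direction for NPM1 thus depends on which transcripts are counted.

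Of the H/ACA proteins, which share a particle, DKC1 alone was called. DKC1 encodes dyskerin, the catalytic pseudouridine synthase, which also stabilises telomerase RNA. DKC1 had 74.1 and 100.3 CPM in the controls and 40.1 and 45.4 CPM with CDH3-AS1 siRNA, and the groups did not overlap. Of the control level, 54.1% and 45.3% remained in batches 1 and 2. Means were 87.2 ± 18.5 and 42.7 ± 3.78 CPM (SD, n = 2). The log2 fold change with the block was -1.01 (SE 0.29), adjusted p = 0.0358 by edgeR's quasi-likelihood test, and it was -1.19 without the block and without the control of batch 1. DESeq2 with the block did not call it (adjusted p = 0.246), nor did edgeR with the block on its most abundant transcript alone (adjusted p = 0.0692), which holds 59.9% of its coding reads.

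GAR1, which helps release the modified RNA, had 20.3 and 24.0 CPM in the controls and 19.6 and 24.5 CPM with CDH3-AS1 siRNA, a difference smaller than its spread. Per length DKC1 stood at 2.04 and 2.12 times GAR1 in the controls and at 1.13 and 0.939 times GAR1 after CDH3-AS1 siRNA. NHP2, the core protein that joins the RNA to dyskerin's module, differed between the siRNAs in batch 1 and hardly in batch 2. Its controls had 92.8 and 105.9 CPM in batches 1 and 2, and the CDH3-AS1 siRNA libraries 44.4 and 106.6 CPM. Its groups overlapped, and the log2 difference of -0.51 (SE 0.28, with the block) missed the threshold in edgeR (adjusted p = 0.563). The per-length ratio of DKC1 to NHP2 was 0.238 and 0.232 in the controls and 0.262 and 0.102 after CDH3-AS1 siRNA, so it did not separate the siRNAs.

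The box C/D core proteins NOP56 and NOP58, paralogs that hold the methyltransferase on the guide RNA, were not called. NOP56 had 181 and 90.5 CPM in the controls and 165 and 109.8 CPM with CDH3-AS1 siRNA. NOP58 had 49.1 and 100.8 CPM in the controls and 77.9 and 103 CPM with CDH3-AS1 siRNA. Between batches NOP56 was called and NOP58 was not (adjusted p = 0.0215 and 0.066, edgeR). NOP58 stood at 0.362 and 0.560 times NOP56 per length in batch 1 and at 1.71 and 1.46 times in batch 2, with the control first in each pair.

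**Figure D3:**
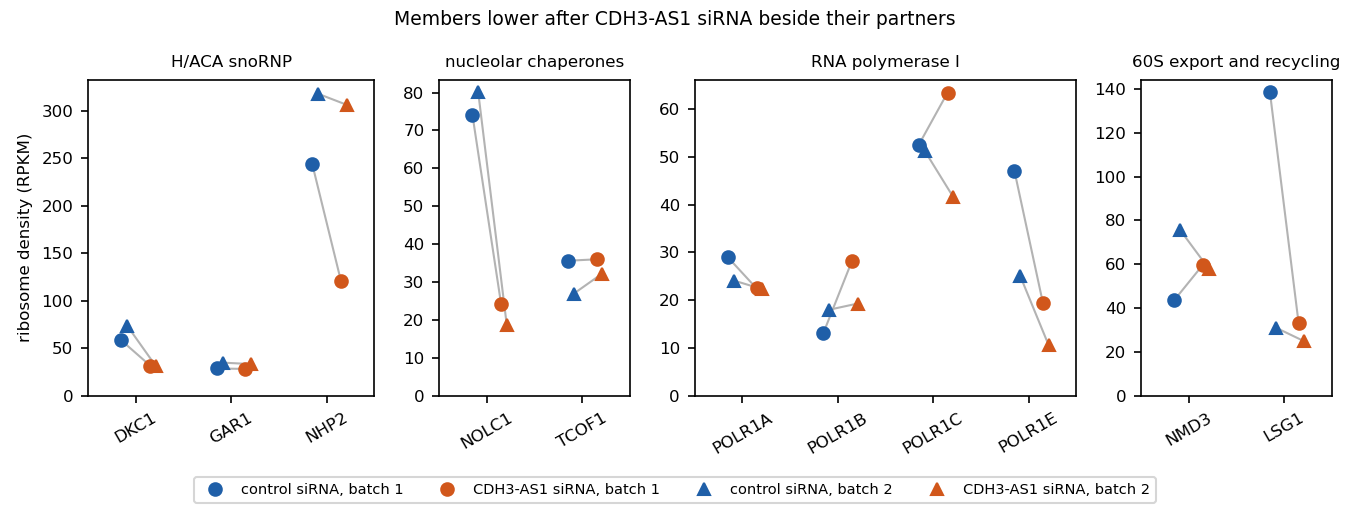
Ribosome density (RPKM, linear axis from 0) of NOLC1, DKC1, POLR1E and LSG1 beside members of the same complex or step, with grey lines joining the libraries of a batch. NOLC1, DKC1 and POLR1E step down in both batches while GAR1 and TCOF1 change little, and LSG1 steps down mainly from the control of batch 1. Other partners move too. In batch 1 NHP2 goes from 244 to 121 RPKM and POLR1A from 28.9 to 22.4. There POLR1B goes from 13.1 to 28.3, POLR1C from 52.6 to 63.5 and NMD3 from 43.7 to 59.9. In batch 2 NMD3 goes from 75.6 to 57.9 RPKM and POLR1C from 51.3 to 41.6.

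Among the polymerase I genes POLR1E stood apart. It encodes a peripheral subunit that, with its partner, helps the enzyme start and elongate and can leave the core enzyme. POLR1E had 51.2 and 31.3 CPM in the controls and 21.5 and 14.2 CPM with CDH3-AS1 siRNA, and the groups did not overlap. Of the control level, 42.1% and 45.4% remained in batches 1 and 2. Means were 41.2 ± 14.1 and 17.9 ± 5.18 CPM (SD, n = 2). With the block the log2 fold change was -1.17 (SE 0.35), adjusted p = 0.0441 by edgeR's quasi-likelihood test, close to the threshold. It rested on 36 reads in CDH3-AS1 siRNA of batch 2, and DESeq2 with the block did not call it (adjusted p = 0.368), nor did edgeR on its most abundant transcript (adjusted p = 0.0868). Without control siRNA replicate 1, the library with muscle transcripts, the fold change without the block was -0.74 in place of -1.16.

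The catalytic core showed no drop of that size in both batches. POLR1A, the largest subunit, had 162 and 132 CPM in the controls and 124 and 129.9 CPM with CDH3-AS1 siRNA. POLR1B, the second largest subunit, had 37.3 and 38.7 CPM in the controls and 63.2 and 41.9 CPM with CDH3-AS1 siRNA. The groups of both genes did not overlap, POLR1A being lower and POLR1B higher, but neither was called (log2 fold changes of -0.20, SE 0.26, and 0.43, SE 0.31, with the block). Among members, 5 were lower in this sense (14.7%) and 1 higher (2.94%), against 14.1% and 13.3% of all genes. POLR1A's difference rests on the control of batch 1, the library with muscle transcripts. Without that library its log2 difference was -0.02 (no block). POLR1C, an assembly subunit shared with polymerase III, had 43.7 and 33.2 CPM in the controls and 43.9 and 31.6 CPM with CDH3-AS1 siRNA. UBTF had 148 and 100.3 CPM against 149 and 81.4 CPM. Per length, POLR1E stood at 1.63 and 1.04 times POLR1A in the controls and at 0.860 and 0.471 times after CDH3-AS1 siRNA. POLR1B stood at 0.454 and 0.746 times POLR1A in the controls and at 1.26 and 0.865 times after CDH3-AS1 siRNA. The ratio of POLR1B to POLR1A thus also separated the siRNAs, in the other direction.

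None of the 10 small-subunit factors was called. They had a median of 0.01 (log2, with the block) and a range of -0.26 to 0.39. Of these, 2 were lower and 1 was higher in both batches. WDR43, a component of the early processome, had 137 and 140 CPM in the controls and 119 and 112 CPM with CDH3-AS1 siRNA, which did not overlap and was not called. NOB1, the endonuclease that makes the final cut of the small-subunit RNA, had 75.7 and 42.6 CPM against 64.9 and 37.5 CPM. BYSL (bystin), a factor of the same late particle, was the member higher in both batches, with 97.6 and 60.1 CPM in the controls and 118 and 85.3 CPM with CDH3-AS1 siRNA. UTP15, LTV1, UTP20, TSR1, DDX21, RRP9 and RRP12 went in opposite directions in the batches. UTP15, for example, differed by 0.73 in batch 1 and -0.31 in batch 2.

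The 10 large-subunit factors had a median of 0.13 (log2, with the block), and LSG1 was the exception. LSG1 is the cytoplasmic GTPase that releases the export adaptor NMD3 from new large subunits. Its controls had 297 and 65.1 CPM in batches 1 and 2, and the CDH3-AS1 siRNA libraries 70.2 and 55.3 CPM. The control of batch 1 was thus 4.23 times the next library, and the groups overlapped. The log2 fold change with the block was -1.19 (SE 0.28), adjusted p = 0.00301 by edgeR's quasi-likelihood test. Within batches it was -2.07 and -0.23, and without control siRNA replicate 1 it was -0.02, adjusted p = 0.995 without the block. That library is the one with 4316 CPM of muscle transcripts; their part in the LSG1 value was not tested. DESeq2 with the block did not call LSG1 (adjusted p = 0.238).

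NMD3, the adaptor that LSG1 releases, had 28.3 and 64.5 CPM in the controls and 53.5 and 59.2 CPM with CDH3-AS1 siRNA. PES1, BOP1 and WDR12 form 1 complex on the large-subunit precursor. With the block their log2 fold changes were 0.17 (SE 0.26), 0.07 (SE 0.26) and -0.13 (SE 0.31), each smaller than its SE. Whether these genes differ from each other was not tested. PES1 had 159 and 114 CPM in the controls and 189 and 120 CPM with CDH3-AS1 siRNA. BOP1 had 160 and 78.9 CPM against 123 and 113 CPM. WDR12 had 27.7 and 64.5 CPM against 32.9 and 47.0 CPM. None of them was called. The remaining large-subunit factors, NOP2, NOP16, RRS1, GNL3 and EBNA1BP2, had log2 fold changes with the block between 0.01 and 0.19.

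More members were called between the batches than between the siRNAs. In the model with both terms, 7 of 34 members (20.6%) differed between batch 2 and batch 1 by edgeR's quasi-likelihood test, against 15.8% of all genes. Of these 5 were lower in batch 2 (14.7%; 6.3% of all genes) and 2 higher (5.88%; 9.52%). DESeq2 called 2, NPM1 and LSG1 (7.52% of the 9048 genes it adjusted). NPM1 (log2 0.96, SE 0.26) and WDR12 (0.84, SE 0.31) were higher in batch 2. NOP56 (-0.79, SE 0.26), NOP2 (-0.76, SE 0.27), NOB1 (-0.80, SE 0.30), UBTF (-0.71, SE 0.26) and LSG1 (-1.29, SE 0.28) were lower. LSG1's difference again rests on the control of batch 1. NOLC1 did not pass this test (-0.10, SE 0.27).

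**Figure D4:**
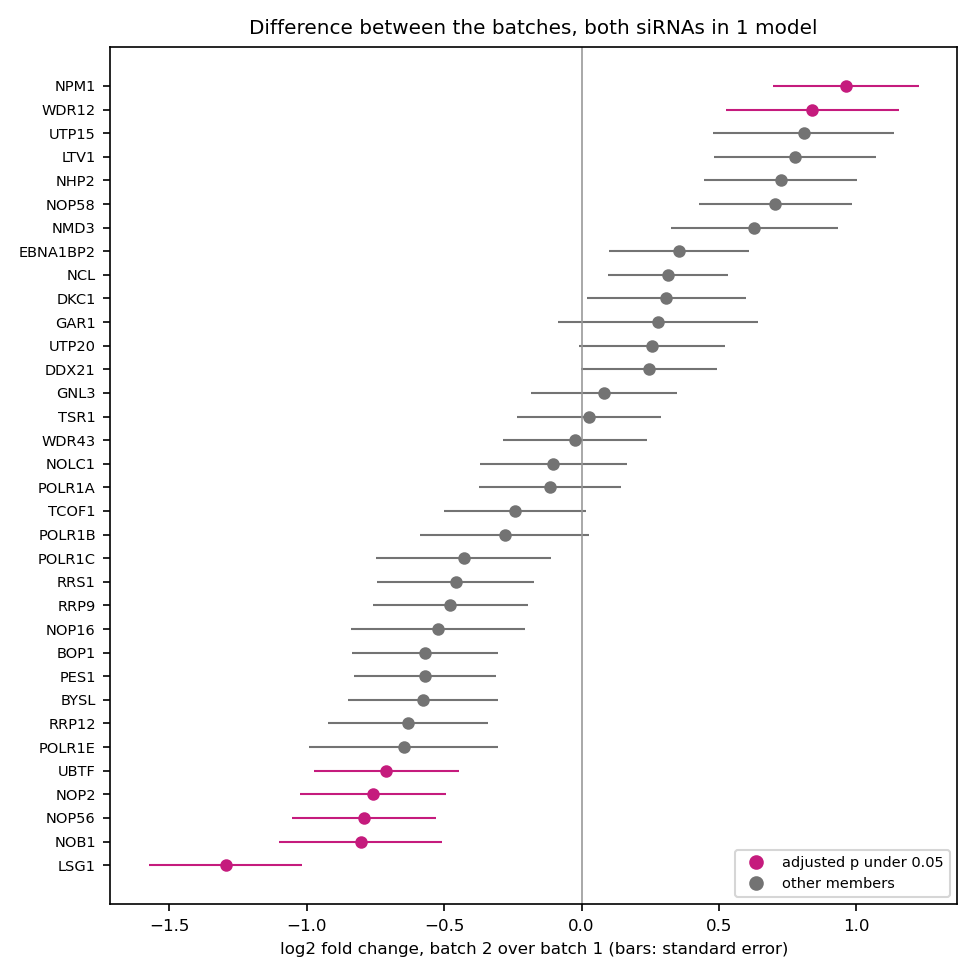
Log2 fold change of batch 2 over batch 1 for 34 members with its standard error, from the model that also holds the siRNA. The 7 members past the threshold are in pink: NPM1 and WDR12 on the right, and UBTF, NOP2, NOP56, NOB1 and LSG1 on the left.

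The rest of the pathway was read from a list of 169 further genes, of which 153 were tested. With the block 0 were called in either direction by edgeR's quasi-likelihood test (1.62% of all genes), and DESeq2 with the block called 0 as well (0.916%). At an unadjusted p under 0.05 there were 6 of the 153, a smaller share than the 9.79% of all genes that reach it. Of these 3 were higher (5.22% of all genes) and 3 lower (4.58%). The smallest adjusted p was 0.212. The medians of the lists, with the block, were 0.08 for 13 other polymerase I subunits and factors, -0.04 for 10 snoRNP assembly factors and -0.02 for 37 processome genes. They were 0.24 for 9 late small-subunit factors, -0.03 for 48 large-subunit factors, -0.14 for 23 genes of the exosome and RNase MRP, and 0.08 for 13 genes of the MYC network and mTOR. Over the 153 genes 36 were lower and 35 higher in both batches, smaller shares than the 27.8% and 26.5% of all genes.

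Footprints in the 5′ UTR, a readout the choice of genes did not use, were scarce. The members together had 2.90% (95% Clopper-Pearson interval 2.54 to 3.29) and 1.72% (1.56 to 1.90) of their 5′ UTR and coding reads in the 5′ UTR in the control libraries of batches 1 and 2. With CDH3-AS1 siRNA the shares were 1.58% (1.43 to 1.74) and 2.42% (2.13 to 2.75). Over all genes the shares were 6.19% and 5.13% in the controls and 3.90% and 7.21% with CDH3-AS1 siRNA. With CDH3-AS1 siRNA the share was thus lower in batch 1 and higher in batch 2, both for the members and for all genes. In each batch the library with fewer reads had the higher share. Totals were 2034854 (control) and 6759850 (CDH3-AS1 siRNA) in batch 1, and 5994485 and 2858835 in batch 2. Whether depth plays a part was not tested. Intervals cover counting error only. BOP1, LSG1, NOB1, POLR1C, RRP9 and WDR43 had no 5′ UTR read in any library.

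Members with high shares stood out in single libraries. WDR12 had 38.8% (28.4 to 50.0) in the control of batch 1, from 33 reads, and 10.1% to 13.1% in the other libraries. That control is the library with muscle transcripts. GAR1, whose coding level was flat, had 9.52% (2.66 to 22.6) and 16.6% (11.2 to 23.2) in the controls. It had 2.36% (0.490 to 6.75) and 36.1% (26.6 to 46.5) with CDH3-AS1 siRNA, so the siRNAs differed in opposite directions in the batches. NOLC1 had 2 and 1 5′ UTR reads in the controls. With CDH3-AS1 siRNA it had 17 reads in batch 1, a share of 4.64% (2.73 to 7.33), and 0 beside 113 coding reads in batch 2, where the interval reaches 3.21%. DKC1 had between 0 and 9 such reads per library.

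**Figure D5:**
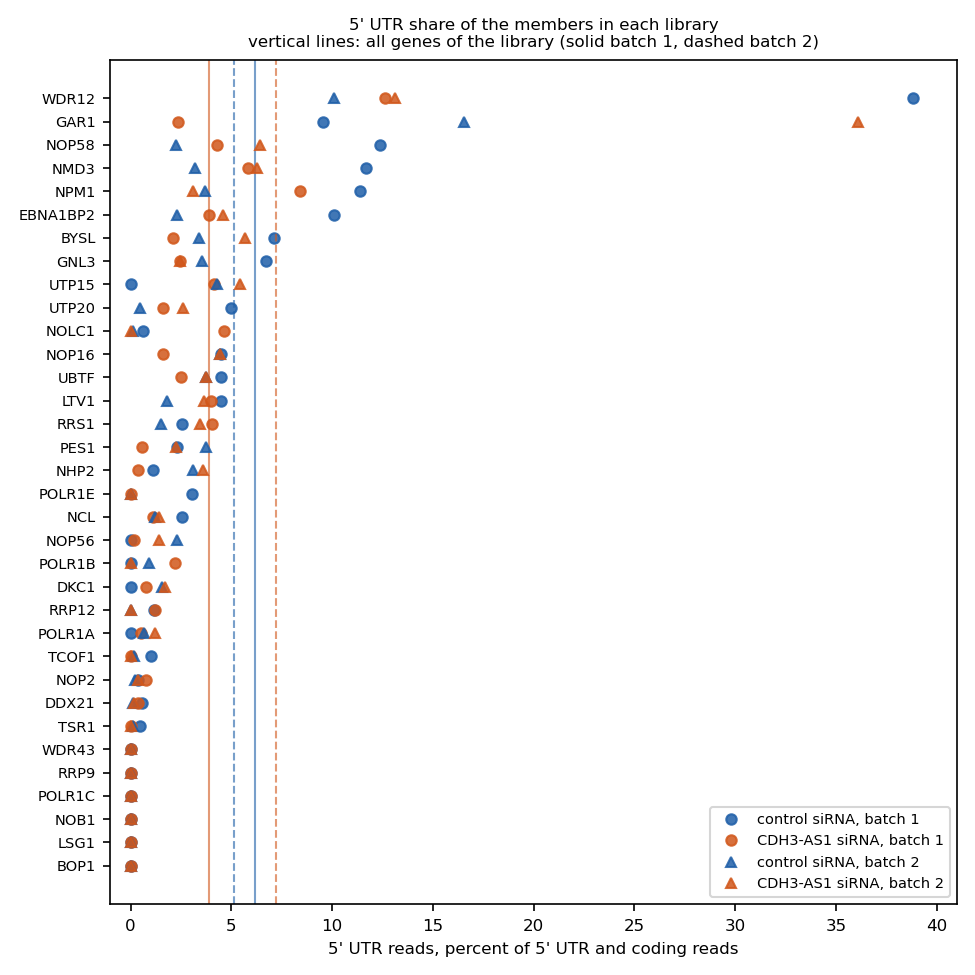
Share of 5′ UTR reads among 5′ UTR and coding reads, in percent, for 34 members in each library, with the share over all genes as vertical lines in the same colours. Most members lie left of the lines, and the WDR12 point of the batch 1 control (38.8%) and the GAR1 point of CDH3-AS1 siRNA in batch 2 (36.1%) lie far to the right.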

How the data were processed

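Ribosome footprints of 4 libraries were analysed, 2 per siRNA. Per the file headers, the authors deposited read counts and RPKM for each transcript's UTRs and coding sequence. Recomputing the RPKM showed that the library total behind them covers every region. Hg38 and DESeq2 are named in the submitters' processing notes. Aligner, counter, annotation release and strand setting: not given in the sources used here. Coding counts were summed per gene name, filtered with filterByExpr (minimum count 10, minimum total 15), scaled by TMM and tested with edgeR 4.0.16 (quasi-likelihood, prior count 2) in R 4.3.3, with Benjamini-Hochberg adjustment over all tested genes and a threshold of 0.05. The main model has no covariate. Same-numbered libraries share a batch in the labels, which pairs them (correlation of their deviations over genes, r = 0.58), and the model with the replicate block is given beside the main one. Residual degrees of freedom were 2 in the main model and 1 with the block. The biological coefficient of variation was 20.2% with the block and 35.9% without. The scripts were tested on simulated counts. DESeq2 1.42.0 and limma 3.58.1 on log2(RPKM + 1) were alternatives. In CPM, 3 coding reads stand at 0.473 to 1.63, depending on the library. By rule all members may be named, with values for every library where they were called, differed by 0.5 (log2) in both batches or belong to the snoRNPs or polymerase I, and other pathway genes only if called with the block. Library values of TCOF1, NCL, NPM1, WDR43, NOB1, BYSL, NMD3, PES1, BOP1 and WDR12 go beyond that rule and were added after they were seen. The members, role groups and lists were chosen with earlier results of these data known. Without RNA-seq the values are ribosome density, in which the amount of mRNA and its translation cannot be told apart. Reads of near-identical copies, such as the pseudogenes of NPM1, may have been shared between genes.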

Additional observations from a re-analysis of the deposited data

How the results depend on the processing

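Without a block, edgeR called 0 genes and 0 members; the count of members rose with the replicate block to 4 (170 of all genes), with DESeq2 and the block to 1 (55 of all genes), and with no filter on low counts to 1 (52 of all genes). DESeq2 without the block called 2 genes. Leaving out 1 library gave 0 to 1 members and 0 to 73 genes; the 73, and LSG1 as the member, came without control siRNA replicate 2. Settings joined to the replicate block were chosen after seeing the data: RLE scaling gave 4 members (172 genes), no filter 4 (227), 50 reads in each library 3 (127), the most abundant transcript 2 (149), all regions 4 (191), and limma on log2(RPKM + 1) 0 (7). The median of the members was -0.00 in the main model, 0.0326 with DESeq2 and the block, 0.0320 with RLE and the block, 0.0347 with 50 reads and the block, 0.0431 with the most abundant transcript and the block, and 0.0532 with all regions and the block. It ran from -0.0768 to 0.0529 when 1 library was left out. Over 19 alternatives NOLC1 ran from -1.97 to -1.66, DKC1 from -1.19 to -0.78, POLR1E, which has under 50 reads in a library and was not tested with that filter, from -1.49 to -0.74, and LSG1 from -2.21 to -0.02. The sign of 26 of 34 members changed under at least 1 alternative, none of them called. Some lay near 0 in the main model, such as GAR1 (-0.02) and RRP9 (-0.01). Sign changes were not counted over all tested genes, so the count is not read as a trait of the members. Between batches DESeq2 called 2 members in place of 7. The block model could not be fitted without a library, since no residual degree of freedom is left. The causes were not tested.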

Other observations

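NPM1's coding reads shifted between transcripts with the library. A short listed transcript with a coding length of 300 bases took 94.3% of them in the control of batch 1 and 61.6% with CDH3-AS1 siRNA in batch 1, against 27.9% and 29.5% in batch 2. The control of batch 1 is the library with muscle transcripts. The transcript with a coding length of 885 bases took 5.71% and 37.9% in batch 1 and 71.8% and 69.8% in batch 2, with the control first. Of the 34 members, 7 had a single transcript listed and 21 had over 90% of their coding reads on 1 transcript.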
